A study of Sus scrofa with 6 samples.

Results

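CFLAR, XAF1, FAS, CASP8 and BCL2L1 are 5 regulators of apoptosis that the platform annotation names on the porcine array. They were taken by gene symbol, as all probe sets that are not controls and carry 1 of these symbols and no other, which gave 7 of 23999 probe sets and 5 of 6765 genes. Of the 7 probe sets, 6 had enough mean signal to enter the fit and 1, a second probe set of BCL2L1, did not. CFLAR and BCL2L1 inhibit cell death, and FAS, CASP8 and XAF1 promote it.

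Aortic valve leaflets of adult female pigs were stripped of endothelium with collagenase, kept overnight in serum-containing medium and then held in a pressure bioreactor for 24 h at 1 Hz. The hypertensive group was cycled between 0 and 120 mmHg and the normotensive group between 0 and 80 mmHg, with 3 arrays in each. Every leaflet was thus out of the animal, in serum and under cyclic load, and no unpressurised or freshly excised leaflet is part of the comparison. Biological replicates are stated, but not whether each leaflet came from a different pig, and all p-values refer only to the scatter among these arrays.

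Death receptors of the TNF family, FAS among them, recruit the adaptor FADD and the initiator CASP8 to a complex at the membrane when their ligand binds. CFLAR (also called FLIP) resembles CASP8 but lacks its protease activity and competes for places in that complex, so its level sets how readily the receptor kills. Further downstream, BCL2L1 (BCL-X) restrains the release of cytochrome c from mitochondria, while XAF1, an interferon-induced protein, opposes the caspase inhibitor XIAP. These roles are known mainly from human and mouse cells, and death of interstitial cells is a known feature of calcifying aortic valves. The RefSeq table for the assembly Sscrofa11.1 holds CFLAR, CASP10 and CASP8 next to each other, with 1 protein-coding gene, CASP10, between CFLAR and CASP8.

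Values are MAS5 signals on a linear scale, and each difference is hypertensive minus normotensive in log2 units. The 2% trimmed mean of all signals lay between 500.11 and 500.131 on the 6 arrays. Of the markers of the labelled interstitial cell, 8 of 9 annotated genes passed the filter, with VIM at 18606 to 26412 on hypertensive arrays and 22536 to 24275 on normotensive arrays. S100A4 did not pass. Over the kept probe sets, the correlation with normotensive arrays averaged 0.817 for hypertensive replicate 1, 0.950 for replicate 2 and 0.895 for replicate 3, against 0.958 to 0.971 among the normotensive arrays. Hypertensive replicate 1 thus stood farthest from the normotensive arrays and replicate 2 nearest. The 3′ to 5′ ratio of the GAPDH control probe sets was 3.67, 2.91 and 6.04 on hypertensive replicates 1 to 3 and 3.02, 2.11 and 7.52 on normotensive replicates 1 to 3, and its part in the results was not tested. In the limma fit over 14399 kept probe sets, with Benjamini-Hochberg adjustment at 0.05, 0 passed (0%). Before adjustment, 1064 higher (7.39%) and 1372 lower (9.53%) probe sets lay under 0.05.

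CFLAR had more signal under hypertensive pressure on both of its probe sets, by 3.31 and 3.90 times. XAF1 was at 4.23 times and FAS at 2.44 times the normotensive level, and CASP8 and BCL2L1 differed by less than the spread between arrays. No member passed the adjusted threshold. On 4 of the 6 kept member probe sets all 3 hypertensive arrays lay above all 3 normotensive arrays, where 10.4% of all kept probe sets did, and on 0 they lay below, where 12% of all did. The same 4 had an unadjusted p under 0.05, beside the 7.39% of all kept probe sets that were higher at that level, and all 6 had a higher mean, as 47.3% of all did. Both CFLAR probe sets are among these 4, and so is that of FAS, which entered the fit through its hypertensive signal. The members were chosen with earlier results of these data known, so this count carries no test.

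The brighter CFLAR probe set had signals of 12678, 4127 and 5315 on hypertensive replicates 1, 2 and 3, against 1991, 2149 and 1791 on normotensive replicates 1, 2 and 3. The groups did not overlap, and hypertensive replicate 1 stood well above the other two hypertensive arrays. The log2 difference was 1.73 (SE 0.39, 95% interval 0.83 to 2.63, n = 3 arrays per group), and the adjusted p was 0.222 by limma. On the log2 scale the SD between arrays was 0.85 in the hypertensive group and 0.13 in the normotensive group, so nearly all of the scatter lay under hypertensive pressure. Without hypertensive replicate 2 the adjusted p by limma was 0.00753 and the fold 4.16, in a fit in which 24.3% of all kept probe sets passed. Without hypertensive replicate 1 the fold was 2.38 and the adjusted p 0.210 by limma.

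The dimmer CFLAR probe set gave signals of 476, 152 and 219.8 on the hypertensive arrays, against 41.2, 80.3 and 81.1 on the normotensive arrays. Its groups did not overlap either, and hypertensive replicates 1, 3 and 2 stood in the same descending order as on the brighter probe set. Over all kept probe sets, the distance of these arrays from the normotensive arrays had that order too. Its log2 difference was 1.96 (SE 0.49, adjusted p = 0.235 by limma), and without hypertensive replicate 2 the adjusted p was 0.0124 by limma. The intervals of both probe sets cover each other's estimate, with 95% bounds for the dimmer one of 1.80 and 8.46 times. With a pseudocount of 64 the fold of the dimmer one was 2.47. Both probe sets report the same gene and are not independent samples of the condition.

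FAS, the receptor at the head of this pathway, was read by 1 probe set with little signal. It stood at 139, 99.97 and 64.9 on the hypertensive arrays, against 45.0, 53.9 and 25.6 on the normotensive arrays. There was no overlap, with 64.9 on hypertensive replicate 3 the nearest to the normotensive range. The log2 difference was 1.29 (SE 0.44, 95% interval 0.28 to 2.29, adjusted p = 0.269 by limma), and the interval took in 0 without normotensive replicate 3 (-0.11 to 2.05) and without hypertensive replicate 1 (-0.07 to 2.12). The filter level was 48.5 and the normotensive geometric mean of FAS, 39.6, lay under it, so FAS entered the fit through the hypertensive group and its fold is imprecise. With a pseudocount of 64 the fold was 1.55 against the reported 2.44. The single probe set of the FAS ligand gene, FASLG, read between 2.06 and 12.9 on all 6 arrays and did not enter the fit.

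CASP8, the initiator protease that FAS recruits, had signals of 89.7, 94.5 and 60.0 on the hypertensive arrays, against 69.1, 98.5 and 65.4 on the normotensive arrays. The highest and the lowest of the 6 values came from opposite groups, and the ranges overlapped almost entirely. All 6 signals were low, with the filter level at 48.5, so the fold of CASP8 is imprecise. The log2 difference was 0.064 (SE 0.35, adjusted p = 0.934 by limma). Its 95% interval ran from 0.599 to 1.82 times, so a rise of the size estimated for CFLAR, XAF1 or FAS lay outside it. A change within those bounds could not be told from none with these arrays.

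XAF1, which opposes XIAP, had the smallest p of the members. Its signals were 1482, 771 and 659.6 on the hypertensive arrays, against 219, 244 and 187 on the normotensive arrays. The lowest hypertensive array stood far above the highest normotensive array, and the normotensive arrays lay close together. The log2 difference was 2.08 (SE 0.36, 95% interval 1.26 to 2.90), which ranked 111 of 14399 from the largest positive difference down, with an adjusted p of 0.164 by limma. The fold lay between 3.31 and 4.97 as each array was left out in turn. It passed the threshold without hypertensive replicate 2 (adjusted p = 0.00765 by limma) and with array weights (adjusted p = 0.000809 by limma), where 39.2% of all kept probe sets passed. The weighted fit rested mostly on hypertensive replicate 3 and normotensive replicate 1. XIAP, its target, had no probe set carrying its symbol alone in the annotation, and so was not measured here.

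BCL2L1, the mitochondrial inhibitor, had signals of 77.5, 53.6 and 54.2 on the hypertensive arrays, against 70.9, 48.5 and 63.9 on the normotensive arrays. The groups overlapped, with geometric means of 60.9 for the hypertensive and 60.3 for the normotensive arrays. The log2 difference was 0.012 (SE 0.35, 95% interval 0.579 to 1.76 times, adjusted p = 0.989 by limma), and the signal lay near the filter level on every array. The second BCL2L1 probe set, under the filter, read 34.7, 3.25 and 4.70 on the hypertensive arrays and 31.9, 10.6 and 47.9 on the normotensive arrays, with overlapping groups. BCL2L1 is spliced into a longer survival form and a shorter form that promotes death, and the annotation does not say which of them either probe set reads.

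**Figure D1:**
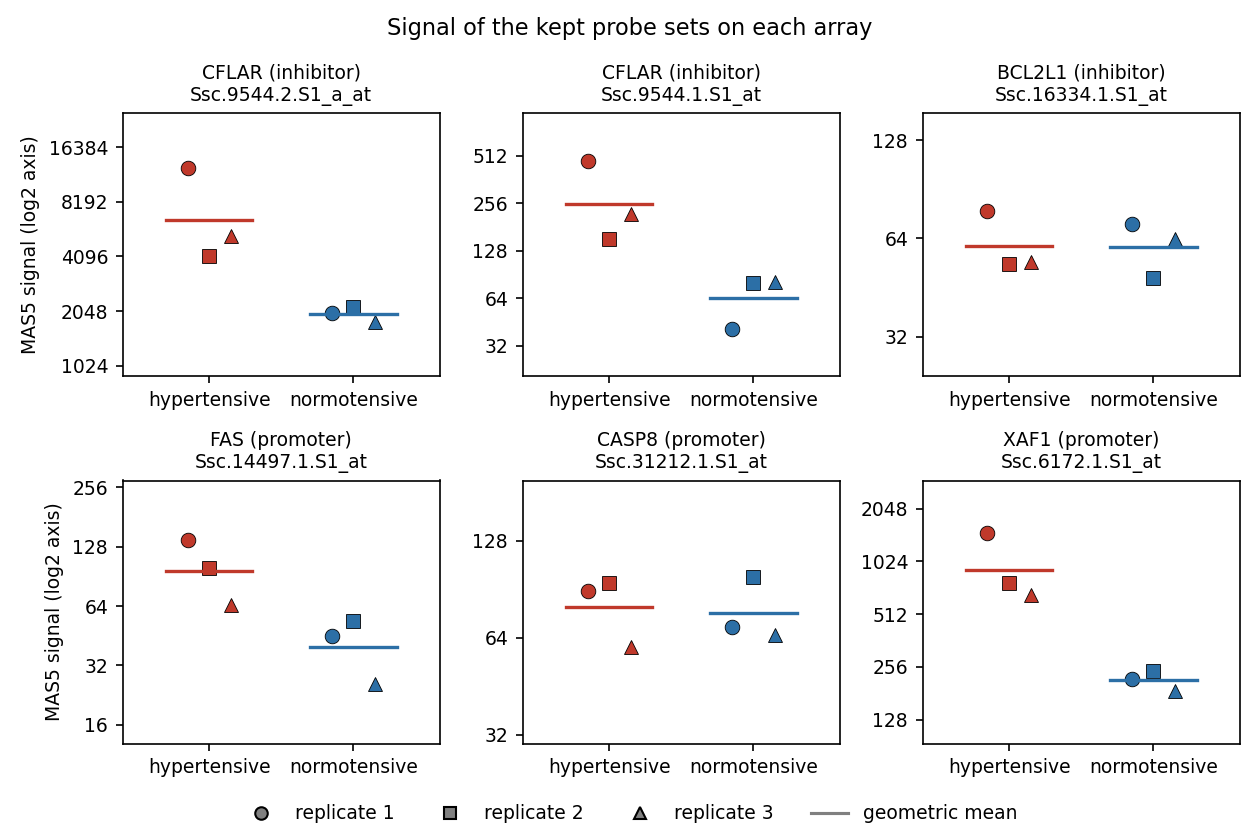
MAS5 signal of the 6 kept probe sets, with hypertensive arrays on the left and normotensive arrays on the right of each panel; the vertical axis is logarithmic, each symbol is an array and each line a geometric mean of 3 arrays. Both CFLAR probe sets, FAS and XAF1 have all hypertensive arrays above all normotensive arrays, and CASP8 and BCL2L1 overlap.

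Inhibitors and promoters of death did not separate by direction. Each side held a gene with a difference close to 0 and at least 1 with more signal under hypertensive pressure. On the brightest probe set of each gene, the mean change of the 2 inhibitors relative to the normotensive mean was 1.52, 0.45 and 0.64 on the log2 scale on hypertensive replicates 1, 2 and 3, and lay between -0.10 and 0.12 on the normotensive arrays. That of the 3 promoters was 1.61, 1.16 and 0.66 on the hypertensive arrays and lay between -0.35 and 0.33 on the normotensive arrays. Inhibitors less promoters came to -0.09, -0.71 and -0.02 on the hypertensive arrays and to 0.10, -0.43 and 0.32 on the normotensive arrays. The values of both groups overlapped, and the mean difference of -0.27 was smaller than the SD between arrays, 0.38 in the hypertensive group and 0.39 in the normotensive group. These means are descriptions of genes chosen with results known and carry no test.

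Among the genes of the receptor complex, the change in CFLAR signal was larger than that in CASP8 signal on every hypertensive array. CASP8 was read by a single dim probe set, and the complex itself was not measured. The log2 change of CFLAR less that of CASP8 was 2.45, 0.76 and 1.78 on hypertensive replicates 1, 2 and 3, and lay between -0.24 and 0.16 on the normotensive arrays. CFLAR less FAS was 0.88, -0.27 and 0.72 on the hypertensive arrays and between -0.32 and 0.49 on the normotensive arrays, so CFLAR and FAS kept no fixed order of change. CFLAR less XAF1 was -0.10, -0.78 and -0.18 on the hypertensive arrays, all below the normotensive values of -0.06 to 0.06, with hypertensive replicate 2 the farthest. These compare changes between genes, and signals of different probe sets were not set against each other.

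**Figure D2:**
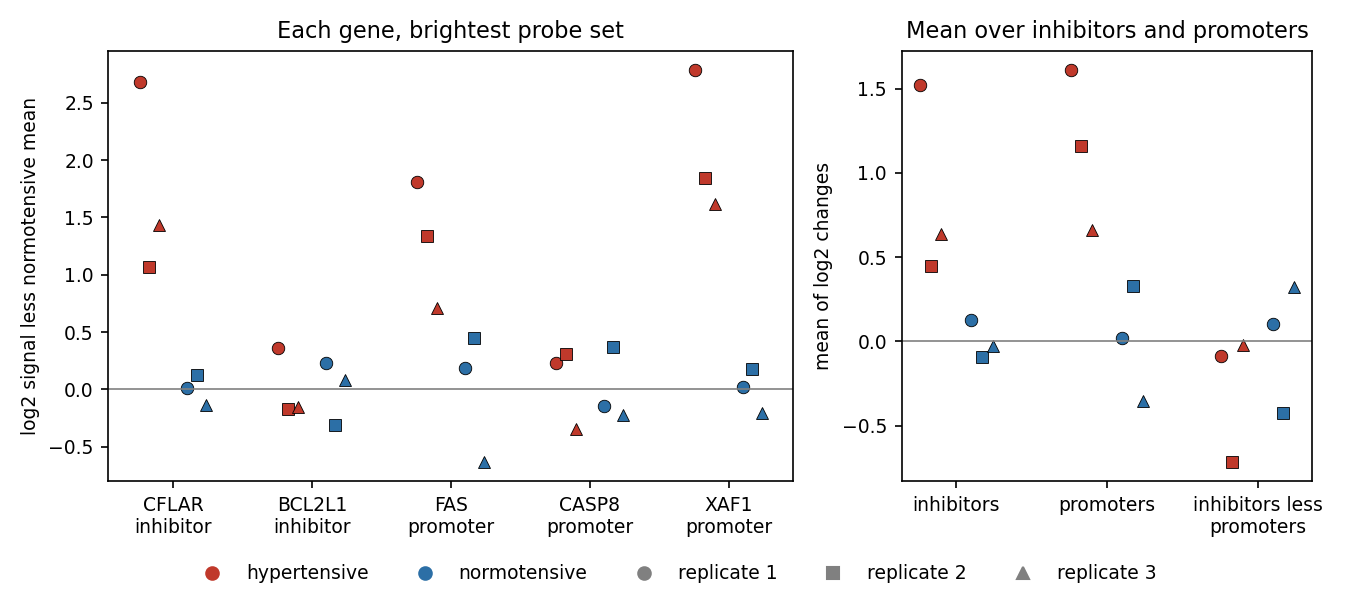
Left, log2 signal of each gene's brightest probe set less its normotensive mean, by array; right, the mean of these changes over the 2 inhibitors, over the 3 promoters, and their difference. Hypertensive arrays are drawn left of normotensive arrays; CFLAR and XAF1 stand at 2.69 and 2.78 on hypertensive replicate 1, and the difference of inhibitors and promoters overlaps between the groups.

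The profiles of the members across the 6 arrays were compared with those of 5270 other genes by the root mean square difference of log2 values centred on the normotensive mean. CFLAR and XAF1 differed by 0.33 on this measure, and 0.380% of the other genes lay nearer to CFLAR than XAF1 did. The measure counts the size of the hypertensive change, and the members were chosen with earlier results known, so this closeness carries no test. FAS lay 0.54 from CFLAR and 0.62 from XAF1, while CASP8 and BCL2L1 lay 1.28 and 1.27 from CFLAR, against a median of 1.40 over all genes. The genes nearest to CFLAR were the antiviral GTPase MX1 at 0.19, the ubiquitin ligase DTX3L at 0.20 and lactoferrin (LTF), an iron-binding protein also found in neutrophil granules, at 0.21. Those nearest to XAF1 were arginase (ARG1) at 0.15, the NF-kB inhibitor NFKBIA at 0.17 and the adhesion molecule ICAM1 at 0.20. For FAS they were the protease BMP1 at 0.21, the phosphatase PTPRA at 0.24 and the adaptor NCK2 at 0.25. The 6 genes nearest to CFLAR and XAF1 had folds from 2.93 to 4.54, and none of them or of the 3 nearest to FAS passed, with adjusted p from 0.115 to 0.269 by limma. Without hypertensive replicate 2 those 6 and PTPRA passed, with adjusted p from 0.00330 for NFKBIA to 0.0198 for PTPRA by limma, in the fit in which 24.3% of all kept probe sets passed. Normotensive signals were 47.2, 63.5 and 34.6 for LTF and 37.6, 61.1 and 30.0 for NCK2 on replicates 1, 2 and 3. Both genes had normotensive geometric means under the filter level, so they entered the fit through the hypertensive group and their folds are imprecise. The fold of DTX3L, 3.37, was 2.19 without hypertensive replicate 1. CASP8 lay nearest to LOC100525232, BACE2 and RNF113A, at 0.075, 0.091 and 0.10, and BCL2L1 to NDEL1, ZCRB1 and TSFM, at 0.074, 0.081 and 0.089. With differences as small as those of CASP8 and BCL2L1, likeness of this kind says only that the arrays scattered alike.

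The wider cell death machinery was read from 10 lists of 102 genes in all, of which the annotation held 54 and 45 passed the filter. Of the 45 genes, taken by their brightest probe set, 26 had higher and 19 lower means under hypertensive pressure, where 45% of all 5271 genes were higher, and 0 passed the adjusted threshold. Unadjusted, 5 were higher and 2 lower at a p under 0.05, where 6.85% and 10.2% of all genes were. The groups did not overlap in 9 genes that were higher (20%) and 4 that were lower (8.89%), where 9.28% and 12.6% of all genes did so. Leaving out the members, 6 of 40 genes were higher with no overlap (15%) and 4 lower (10%). Of the same 40, only 2 were higher and 2 lower at an unadjusted p under 0.05 by limma. The median log2 difference of the 45 genes was 0.064, against -0.07 over all genes.

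Among death receptors and their ligands, all 5 measured genes had higher means on their brightest probe set, with a median log2 difference of 1.20 (0.82 without FAS), and 0 passed. Over all genes, 45% had higher means. FAS and TNFSF10 entered the fit through their hypertensive signal, so the filter itself leans this count and median towards higher values. The dimmer probe set of TNFRSF12A was at 0.909 times with overlapping groups. TNFRSF1A, the main receptor for TNF, had signals of 6186, 3757 and 4819 on the hypertensive arrays, against 2339, 1836 and 2168 on the normotensive arrays. No value was shared between the groups' ranges, and the log2 difference was 1.20 (SE 0.25, adjusted p = 0.199 by limma), and it passed without hypertensive replicate 2 (adjusted p = 0.00603 by limma). TNFSF10, the ligand TRAIL, was at 478, 55.0 and 76.7 on the hypertensive arrays, against 24.8, 67.1 and 34.9 on the normotensive arrays, so its groups overlapped and hypertensive replicate 1 stood alone. Its normotensive geometric mean of 38.7 lay under the filter level of 48.5, so it entered the fit through the hypertensive group and its fold is imprecise. The 3.26-fold difference (adjusted p = 0.312 by limma) was 1.68-fold without that array and 4.94-fold without hypertensive replicate 2. TNF and LTA did not pass the filter. TNF read 246, 12.03 and 50.2 on the hypertensive arrays, and between 22.4 and 55.2 on the normotensive arrays.

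The 4 measured genes listed as death receptor adaptors had log2 differences between -0.13 and 0.49. Higher means were found in 3 of the 4 (median log2 difference 0.42), where 45% of all genes had them, and 0 passed. FADD, which bridges FAS and CASP8, had a log2 difference of 0.49 (SE 0.35, adjusted p = 0.460 by limma) with overlapping groups, and DAXX one of 0.49 with an adjusted p of 0.491 by limma. The deubiquitinase CYLD was at 1.28 times with groups that did not overlap (adjusted p = 0.497 by limma).

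Of the caspases, CASP1, CASP2, CASP6 and CASP8 were measured, and none had a difference beyond the scatter of its arrays. The differences ran from -0.24 for CASP1, the inflammatory caspase, to 0.073 for CASP2, and that of the executioner CASP6 was 0.055, with adjusted p from 0.778 to 0.934 by limma. The groups overlapped in all 4 genes.

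Beside CFLAR, 8 further inhibitors of death receptor signalling and general survival factors were measured, with a median log2 difference of 0.069, and 0 passed. PEA15, which shares the death effector domain of FADD and CFLAR, was at 5207, 2530 and 3561 on the hypertensive arrays, against 2508, 2383 and 2290.5 on the normotensive arrays. Its groups barely separated, with a log2 difference of 0.59 (SE 0.28, adjusted p = 0.321 by limma), and the groups of its dimmer probe set overlapped. PEA15 passed without hypertensive replicate 2 (adjusted p = 0.0301 by limma). API5 was at 1.69 times with overlapping groups (adjusted p = 0.304 by limma), and passed at 2.15 times without hypertensive replicate 2 (adjusted p = 0.0189 by limma). Its dimmer probe set was at 1.98 times with groups that did not overlap (adjusted p = 0.289 by limma). The normotensive geometric mean of that probe set, 37.3, lay under the filter level, so it entered the fit through the hypertensive group. No other gene of this list was near CFLAR in size of difference, the list running from -0.70 to 1.73.

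In the BCL2 family the survival member MCL1, a short-lived protein that holds BAK1 in check, was at 11648, 8212 and 8113 on the hypertensive arrays, against 7215, 5882 and 8011 on the normotensive arrays. The groups did not overlap but nearly touched, and the log2 difference was 0.40 (SE 0.21, adjusted p = 0.351 by limma). Of the 5 measured promoters of this family 2 had higher and 3 lower means, with a median of -0.041, and 0 passed; with a median shift 3 were higher and the median was 0.018. PMAIP1 (NOXA), a BH3-only protein that binds MCL1, stood out among them, with 7660, 1675 and 1842 on the hypertensive arrays, against 448, 605 and 460.1 on the normotensive arrays. Its groups did not overlap, and its log2 difference of 2.52 (SE 0.55, adjusted p = 0.220 by limma) was the largest of the 45 genes. Its fold of 5.74 was 3.51 without hypertensive replicate 1. It was 7.52 without hypertensive replicate 2, where it passed (adjusted p = 0.00996 by limma). BCL2L13 was at 0.690 times the normotensive level with groups that did not overlap (adjusted p = 0.320 by limma), and BAD at 0.605 times with overlapping groups (adjusted p = 0.397 by limma). The pore formers BAX and BAK1 and the BH3-only gene BCL2L11 did not pass the filter.

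Of the inhibitor of apoptosis proteins, BIRC5 and BIRC6 were measured. BIRC5 (survivin), which also serves in cell division, was at 7.90, 89.2 and 88.5 on the hypertensive arrays, against 157, 187 and 139 on the normotensive arrays. No overlap was seen, the log2 difference was -2.01 (SE 0.87, adjusted p = 0.292 by limma), and the ratio to the normotensive level, 0.248, was 0.556 without hypertensive replicate 1, 0.165 without hypertensive replicate 2 and 0.166 without hypertensive replicate 3. The hypertensive geometric mean of BIRC5, 39.7, lay under the filter level. BIRC6, a large ubiquitin ligase, differed by -0.025 with an adjusted p of 0.970 by limma, a sign that turned with a median shift (0.034). Among the antagonists of these proteins and parts of the apoptosome, XAF1 was the only gene whose groups did not overlap out of 5 measured. AIFM1, a mitochondrial flavoprotein that can move to the nucleus, was at 400.3, 1507 and 318 on the hypertensive arrays, against 1274, 1370 and 1067 on the normotensive arrays. Hypertensive replicate 2 thus lay above the normotensive range and the other two far below it. The ratio of 0.469 (adjusted p = 0.334 by limma) was 0.290 without hypertensive replicate 2, where it passed (adjusted p = 0.00484 by limma), and its dimmer probe set had overlapping groups. SEPT4 was at 0.530 times with overlapping groups (adjusted p = 0.488 by limma). That ratio was 0.342 without hypertensive replicate 2 and 0.877 without hypertensive replicate 3, and the hypertensive geometric mean of SEPT4, 37.1, lay under the filter level.

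At the execution end, DFFA (ICAD), which holds the caspase-activated DNase inactive until it is cleaved, was at 87.9, 378 and 189.6 on the hypertensive arrays, against 492, 556 and 496 on the normotensive arrays. Again the groups were apart, with a log2 difference of -1.48 (SE 0.49, adjusted p = 0.265 by limma), and a further DFFA probe set also lay lower with no overlap. Another DFFA probe set, under the filter, had overlapping groups. DFFA was at 0.359 times the normotensive level, and passed without hypertensive replicate 2 at 0.251 times (adjusted p = 0.00912 by limma). GSDMD, the pore former of lytic death, differed by 0.31 with an adjusted p of 0.728 by limma. Of the 7 measured genes listed as p53 targets and regulators, 5 had lower and 2 higher means, with a median of -0.32, and 0 passed. Over all genes, 45% had higher means. PMAIP1 and FAS, both with higher means, were counted in other lists. TP53I3 was at 0.539 times (adjusted p = 0.305 by limma), SESN1 at 0.580 times (adjusted p = 0.448 by limma) and PERP at 1.51 times (adjusted p = 0.520 by limma), and only in TP53I3 of these 3 did the groups not overlap. The hypertensive geometric mean of TP53I3, 36.4, lay under the filter level. SESN1 was at 786, 3004 and 3714 on the hypertensive arrays, against 2988, 4662 and 3226 on the normotensive arrays. Hypertensive replicate 1 alone was far below the normotensive range, and without it SESN1 was at 0.939 times.

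**Figure D3:**
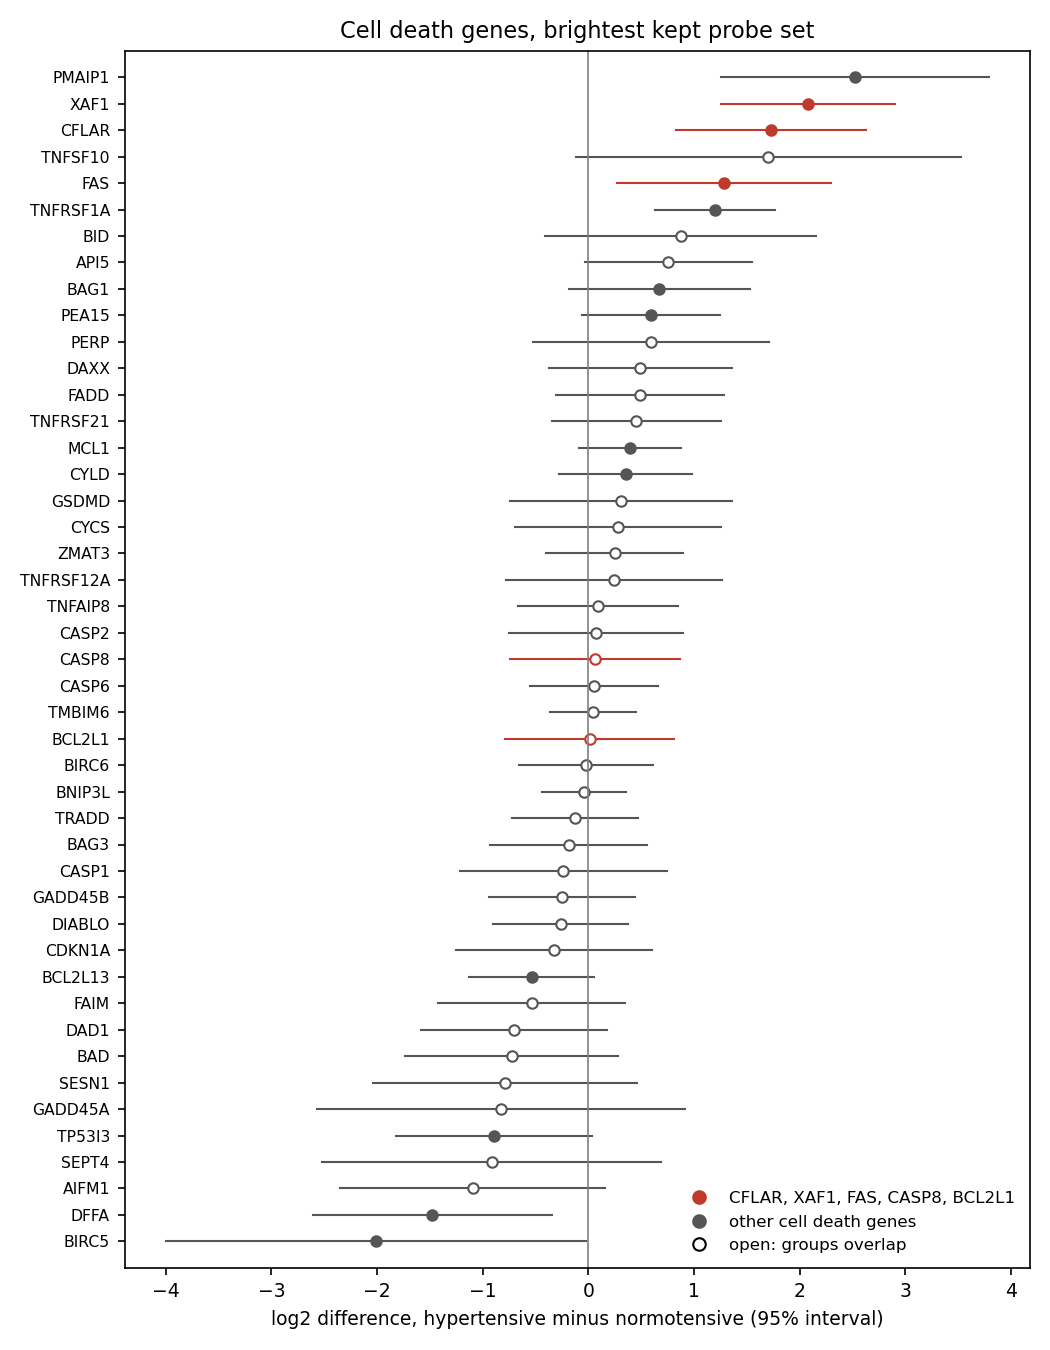
Log2 difference, hypertensive minus normotensive, of the 45 measured cell death genes by their brightest kept probe set, with the 95% interval of the limma fit; red marks the 5 members and open symbols genes whose groups overlap. PMAIP1, XAF1 and CFLAR have the largest positive differences, CASP8 and BCL2L1 lie near 0, and DFFA and BIRC5 have the largest negative differences.

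FAS, CASP8 and XAF1 are also expressed by leukocytes and endothelial cells, and in bulk tissue fewer cells of a type and less RNA per cell cannot be told apart. Of 7 annotated lymphocyte and pan-leukocyte markers 2 passed the filter, PTPRC and CORO1A, and CD3D, CD3E, CD4, CD8A and PRF1 did not. The summed signal of the 7 lay between 217 and 347 on the hypertensive arrays and between 204 and 318 on the normotensive arrays. All 4 annotated macrophage markers passed the filter, 1 of them higher, and their sum was 704 to 3922 on the hypertensive arrays and 2662 to 4903 on the normotensive arrays. Of 10 endothelial markers 5 passed, 1 of them higher, while CDH5, VWF, KDR, TIE1 and CLDN5 did not, and the sum was 2050 to 3927 on the hypertensive arrays and 2493 to 3060 on the normotensive arrays. Single markers differed between the groups where these sums overlapped. SELP, the adhesion molecule P-selectin, was at 2296, 784 and 368 on the hypertensive arrays, against 95.4, 245 and 90.6 on the normotensive arrays, without overlap (6.79 times, adjusted p = 0.235 by limma). CDH5, under the filter, read 68.4, 115 and 84.9 on the hypertensive arrays and 30.3, 12.3 and 40.5 on the normotensive arrays, also without overlap. ERG was at 0.640 times, lower without overlap (adjusted p = 0.288 by limma). Of both leukocyte markers above the filter, CORO1A was at 1.73 times and PTPRC at 0.399 times, each without overlap. None of the 3 neutrophil markers passed, and their sum was 92.7 to 421 on the hypertensive arrays, all above the 29.0 to 77.4 of the normotensive arrays, with S100A9 the one of them whose groups did not overlap. None of the 4 annotated muscle markers passed, with sums of 73.2 to 116 on the hypertensive arrays and 79.7 to 142 on the normotensive arrays. Among the interstitial cell markers 0 of 8 were higher, where 45% of all genes had higher means. LUM (0.551 times) and POSTN (0.691 times) were lower without overlap, and the groups of the other kept markers overlapped. The sum of the 9 was 53213 to 64815 on the hypertensive arrays and 75774 to 77900 on the normotensive arrays. The part of any of these cell types in the differences of CFLAR, XAF1 and FAS was not tested.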

How the data were processed

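Porcine Genome Array signals were measured on 6 arrays, 3 hypertensive and 3 normotensive, from 70 ng of total RNA each, amplified in repeated rounds, with 10 µg of cRNA hybridised, per the labels' protocols. The authors deposited signal intensity per probe set on a linear scale, made with GCOS and MAS5 per the submitters' processing notes, their versions being not given in the sources used here. Near-equal trimmed means show a scaling to 1 common level, which removes any difference in total RNA. Calls of presence were not used here. Precision is limited by the number of arrays.

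Of 24123 probe sets, 124 controls were left out. Of the other 23999, the platform annotation gave 1 symbol to 10069, several to 198 and none to 13732; probe sets with several named none. All 7 member entries matched their RefSeq gene. Intensities were log2-transformed without a pseudocount, and probe sets at or above the 40th percentile of mean log2 signal (48.5) were kept, 14399 in all. The test was limma 3.58.1 under R 4.3.3 (linear model, 2-sided, with variances moderated by eBayes along the mean intensity), with p-values adjusted by Benjamini-Hochberg over all kept probe sets at 0.05. The code was tested on simulated data.

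The members and lists were chosen with earlier results of these data known. Named were all member probe sets, for each list the 3 genes, or fewer, with the lowest p by their brightest kept probe set, and the 3 genes nearest each member in profile. A fold is a ratio of geometric means. FASLG, TNF, LTA, BAX, BAK1 and BCL2L11 are named as genes below the filter, outside that rule and after their values were seen. No sequence was used and no genome coordinate is printed here, since the files name no genome build. Only the order of CFLAR, CASP10 and CASP8 was taken from RefSeq gene positions, on the assembly named above. Alternatives were the replicate block, quantile normalization, a median shift, other filters and pseudocounts, other variance models, array weights, the mean of a gene's probe sets, and each array left out.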

Additional observations from a re-analysis of the deposited data

Results flagged for a closer look

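Probe sets of the cell death genes that entered no gene's result, because they lay under the filter or carry several symbols, numbered 22, and were searched for those whose 3 hypertensive arrays all exceeded the filter level and every normotensive array, with a mean at least 2 times as high. The annotation gives 1 such probe set to both CFLAR and its neighbour CASP10, so it was assigned to neither. It stood at 3748, 1368 and 1892 on hypertensive replicates 1, 2 and 3, against 802, 802 and 867 on the normotensive arrays, 2.59 times the normotensive level. Its log2 difference was 1.37 (SE 0.37, adjusted p = 0.238 by limma), and hypertensive replicates 1, 3 and 2 stood in the same descending order as on both CFLAR probe sets. That is also the order of their distance from the normotensive arrays over all kept probe sets, so it does not tell CFLAR from CASP10. Groups of 3 arrays are too small to be read for single outlying arrays.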

How the results depend on the processing

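The count of passing probe sets, 0 in the reported fit, was 5639 with array weights and ran from 0 to 3505 as 1 array was left out. It was 3505 without hypertensive replicate 2 and 1 without normotensive replicate 2, and 0 under each other alternative; the cause was not tested. The array weights were 0.29, 0.19 and 2.38 on hypertensive replicates 1, 2 and 3. They were 6.96, 0.93 and 1.15 on normotensive replicates 1, 2 and 3. That fit thus rested mostly on hypertensive replicate 3 and normotensive replicate 1. With array weights the log2 differences of both CFLAR probe sets, at 1.53 and 2.27, and of XAF1, at 1.74, passed. As 1 array was left out they ran from 1.25 to 2.06 and from 1.50 to 2.33 for CFLAR and from 1.73 to 2.31 for XAF1, and passed only without hypertensive replicate 2. FAS ran from 0.97 to 1.57 as 1 array was left out, was at 0.63 with a pseudocount of 64 and 0.76 with array weights, and passed under no alternative. The dimmer CFLAR probe set was at 1.30 with a pseudocount of 64, under which the folds of TNFSF10 (1.99), BIRC5 (0.530), DTX3L (2.24) and LTF (1.95) also moved by over 1.5 times. Of 38 named log2 differences 21 passed with array weights and 16 without hypertensive replicate 2. With array weights the ratios of DAXX (0.825), BIRC5 (0.441), AIFM1 (0.288), SEPT4 (0.257), SESN1 (0.990) and BMP1 (1.54) moved by over 1.5 times. The sign of the differences near 0 was not stable. With array weights BCL2L1 was at -0.26, CASP8 at -0.14, DAXX at -0.28 and BIRC6 at 0.16. As 1 array was left out, BCL2L1 ran from -0.16 to 0.13, CASP8 from -0.058 to 0.27, CASP1 from -0.61 to 0.19, CASP6 from -0.18 to 0.18, CASP2 from -0.20 to 0.41, BIRC6 from -0.15 to 0.18 and GSDMD from -0.097 to 0.64. BIRC6 was at 0.034 with the median shift. Inhibitors less promoters ran from -0.49 to -0.05 as 1 array was left out and was 0.03 with a pseudocount of 64.

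The labels state no pairing, and the numbers were not taken to pair the arrays. The deviations of same-numbered arrays from their group means correlated at 0.06, 0.07 and 0.23 for replicates 1, 2 and 3. Though small, these were for each hypertensive array the best match among the normotensive arrays. The GAPDH ratios also ranked alike by number in both groups, so a shared source or batch by number is possible and was not tested. With the replicate block 0 probe sets passed, so no call changed. The adjusted p was then 0.144 and 0.166 for CFLAR and 0.133 for XAF1 by limma. The 60th percentile filter left no value for FAS, CASP8, BCL2L1 and the dimmer CFLAR probe set.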
